A study of Homo sapiens with 6 samples.

Results

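Contacts of chromosome 8 with chromosomes 2, 4 and 14 were examined in HCC1954, a breast cancer cell line, beside SNU-C1, from colon cancer, and OE33, from esophageal adenocarcinoma. All 3 lines were profiled by in situ Hi-C with the restriction enzyme MboI, the labels give no treatment, and each line is represented by 1 map. The members were all pairs of 40-kb bins with one bin on chromosome 8 and the other on chromosome 2, 4 or 14, which gave 49567380 bin pairs (22252800 with chromosome 2, 17491140 with chromosome 4 and 9823440 with chromosome 14) of 2733951927 pairs of bins on different chromosomes. Of these members, 40489140 had usable coverage at both bins in all 3 lines. The chromosome pairs had been selected on the measured contacts of HCC1954, and the places of strongest contact described here were chosen by the same values, so these contact values are a description and carry no test. The maps held 135016294 read pairs for SNU-C1 (14.8% between chromosomes), 116359220 for HCC1954 (19.6%) and 141118698 for OE33 (36.6%). Maps of replicates 1 and 2 of SW480, another colon cancer line, entered only where coverage and contacts within a chromosome were measured, and not in contacts between chromosomes, because 0.262% and 0.263% of their read pairs joined different chromosomes. With 1 map a line, differences between lines have no replicate check, and the intervals given are exact 95% Poisson intervals of read pairs, which cover counting error only. The maps hold no expression values, so the labelled cell types were not checked against markers.

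In an unrearranged nucleus, loci on different chromosomes meet rarely and rather evenly, whereas loci on the same DNA molecule meet often and less so with every step along the chromosome. When DNA of different chromosomes is joined, the joined pieces behave as one molecule in a Hi-C map. The contact is then highest at the joined ends and falls off with distance along both chromosomes, which gives a bright corner in the map, and a block of even contact with sharp edges marks a piece that is carried as a unit. Contact frequency was divided by the mean over all usable bin pairs of different chromosomes in the same map to give an observed/expected value (O/E). A block pair was called line-specific when its O/E was at least 4 and when, after 0.5 was added to every O/E, HCC1954 (or the line in question) exceeded each of the remaining lines by a factor of 4 or more. A corner is the line-specific pair of 200-kb blocks, with at least 10 read pairs, that had the highest O/E within 3 Mb on both axes. The strongest 3 corners of each chromosome pair, by the O/E of their 200-kb blocks, were refined to 40-kb bins. The bin pair with the most contact over 3 by 3 bins was taken, inside the block pair or in the blocks next to it. Positions of ends are those of the refined bins, whereas the O/E and the read pairs of a corner are those of its 200-kb block pair. Each corner has 1 end on each chromosome. A contact present in a fraction of the cells and a weaker contact in every cell cannot be told apart in such maps.

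On the partner chromosomes, the 9 corners made of the strongest 3 of each chromosome pair had 8 distinct ends. The ends on chromosome 2 lay at 98.60, 98.96 and 140.64 Mb, those on chromosome 4 at 166.68, 170.64 and 173.68 Mb, and those on chromosome 14 at 36.84 and 54.76 Mb, where each position is the start of a 40-kb bin of hg19. The bin at 98.60 Mb holds the start of *TMEM131*, which codes for a membrane protein involved in collagen secretion, and the bin at 98.96 Mb overlaps *CNGA3*, which codes for a cone photoreceptor channel subunit. The bin at 170.64 Mb overlaps *HPF1*, the cofactor that directs PARP1 to serine residues, and *CLCN3*, a chloride/proton exchanger. The bin at 173.68 Mb lies in *GALNTL6*, a member of the family of glycosyltransferases that begin O-linked glycans. On chromosome 14, *MBIP*, a component of a histone acetyltransferase complex, overlaps the 200-kb block of the corner that was refined to 36.84 Mb. That end bin itself lies in the next block. No protein-coding gene overlaps the block of the end at 54.76 Mb, where *CDKN3*, a phosphatase of cyclin-dependent kinases, is nearest at 63.6 kb. The 250 bases upstream of 3 genes are shown to place the partner DNA at these ends, 1 gene per partner chromosome, namely the gene whose annotated start was closest to the centre of an end bin (7.6 kb for *TMEM131*, 19.1 kb for *HPF1* and 70.2 kb for *MBIP*). They were read from GRCh37, on the minus strand for all 3 genes, at chr2:98612412-98612661, chr4:170679096-170679345 and chr14:36789844-36790093. Capitals mark GATC, the site that MboI cuts.
TMEM131: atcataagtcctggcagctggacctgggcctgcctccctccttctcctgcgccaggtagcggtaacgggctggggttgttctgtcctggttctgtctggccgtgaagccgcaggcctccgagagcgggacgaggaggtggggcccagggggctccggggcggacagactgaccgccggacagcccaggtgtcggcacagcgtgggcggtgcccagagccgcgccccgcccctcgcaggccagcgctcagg
HPF1: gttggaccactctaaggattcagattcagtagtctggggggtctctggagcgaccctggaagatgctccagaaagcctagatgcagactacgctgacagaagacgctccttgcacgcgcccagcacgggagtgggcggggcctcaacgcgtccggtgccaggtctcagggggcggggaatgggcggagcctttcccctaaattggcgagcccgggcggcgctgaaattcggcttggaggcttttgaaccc
MBIP: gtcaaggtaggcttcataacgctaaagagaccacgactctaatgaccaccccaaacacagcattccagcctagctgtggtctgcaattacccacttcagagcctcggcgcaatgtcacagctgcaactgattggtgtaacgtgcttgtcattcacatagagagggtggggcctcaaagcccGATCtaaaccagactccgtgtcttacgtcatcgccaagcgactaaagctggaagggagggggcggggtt
GATC reads the same on both strands, and it occurs 1 time in the *MBIP* window and in 36.7% of the 250-base windows upstream of 20098 protein-coding genes. Cutting sites limit what a bin can contribute, and the 17 distinct end bins of both sides of the corners held 78 to 117 sites (median 92), within the range of 76 to 132 between the 5th and 95th percentiles of all 65556 usable bins (median 98).

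The long arm of chromosome 8 carries *MYC* and is gained or amplified in many breast cancers. In 1-Mb blocks, HCC1954 had 873 line-specific block pairs of 30030 between chromosomes 8 and 2 (2.91%), 528 of 23530 between chromosomes 8 and 4 (2.24%) and 840 of 11310 between chromosomes 8 and 14 (7.43%). Over all pairs of different chromosomes, 0.395% of the block pairs were specific to HCC1954, and since these chromosome pairs were picked from that map, nothing is read from the excess. Together they held 17.2% of the 13043 block pairs specific to HCC1954. By the same rule, SNU-C1 had 0, 0 and 3 specific block pairs (0.168% over all chromosome pairs) and OE33 had 0, 0 and 0 (0.0696%). The contact was uneven over these maps. The median O/E of the block pairs in HCC1954 was 0.90, 0.82 and 1.02 with chromosomes 2, 4 and 14 and the mean was 1.35, 1.28 and 2.02. The highest 1-Mb O/E was 205 with chromosome 2, 331 with chromosome 4 and 147 with chromosome 14, against at most 14 in SNU-C1 and 6.43 in OE33. Just inside the thresholds lay block pairs with an O/E of 4.13 against 0.66 in the highest other line (chromosome 2), 5.74 against 1.05 (chromosome 4) and 4.65 against 0.79 (chromosome 14), and just outside lay 7.36 against 1.47, 4.54 against 0.76 and 5.34 against 0.96.

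Nearly all line-specific contacts lay on the long arm of chromosome 8. Of 2241 specific block pairs, 2240 lay between 72 and 134 Mb of chromosome 8, which is 7.24% of the 30938 block pairs tested there, 1 lay on the short arm, and none lay between 45 and 72 Mb (11976 tested) or between 134 and 147 Mb (4990 tested). The bounds of 72 and 134 Mb were set by the first and last long-arm blocks with a specific pair. The absence of specific pairs on the rest of the long arm therefore follows from the bounds. On chromosome 2, 872 of the 873 lay on the long arm, beginning at the block at 97 Mb, and 1 of 11440 tested lay on the short arm. Chromosome 4 contributed both arms, with 247 of 5980 block pairs on the short arm (4.13%) and 281 of 17550 on the long arm (1.60%). Chromosome 14, whose measured blocks are all on its long arm, was in contact over nearly its whole length, with 83 of 87 blocks in a specific pair (95.4%) against 127 of 231 on chromosome 2 (55.0%) and 70 of 181 on chromosome 4 (38.7%).

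**Figure D1:**
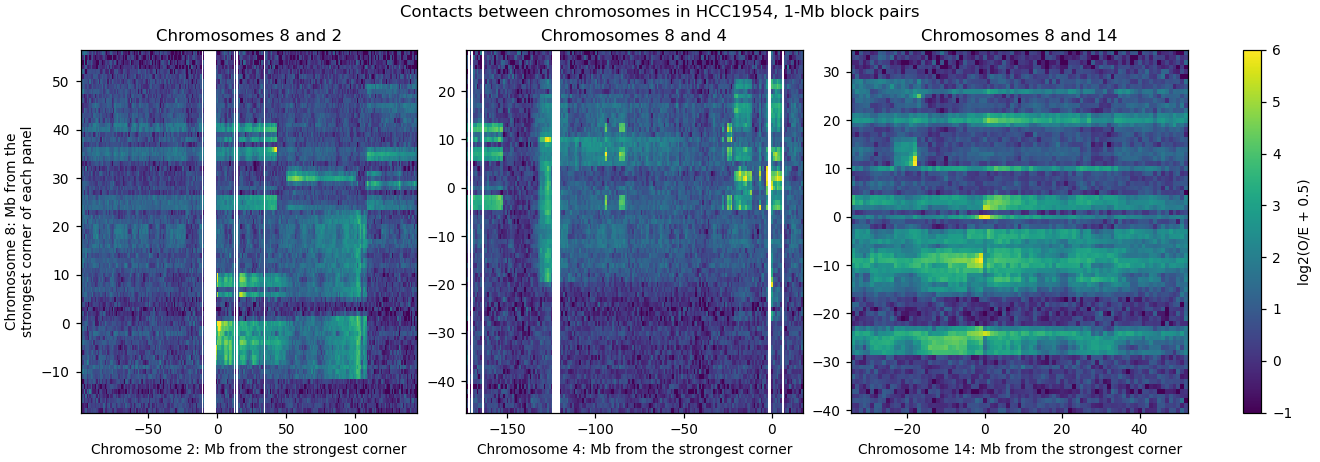
Contact maps of HCC1954 in 1-Mb blocks between the distal part of chromosome 8 (vertical axis, Mb from the strongest corner of each panel) and the whole of chromosomes 2, 4 and 14 (horizontal axes, Mb from the same corner), coloured by log2(O/E + 0.5); white blocks were not usable. Contact forms rectangles with sharp edges, and the chromosome 14 panel shows bands that run over much of the width. Taken over all blocks of chromosome 8, 83 of 87 blocks of chromosome 14 had a specific pair, and at most 70 had one with any single block.

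In 200-kb blocks, 1454 of 753060 block pairs with chromosome 2 (0.193%) were specific to HCC1954. With chromosome 4 it was 2427 of 587452 (0.413%) and with chromosome 14 it was 1992 of 282968 (0.704%). Over all chromosome pairs, 0.0478% of such pairs were specific. The specific block pairs with chromosomes 2, 4 and 14 held 6.66%, 22.8% and 15.4% of the read pairs between the respective chromosomes. The number of corners with an O/E of at least 100 differed more, at 4 with chromosome 2, 21 with chromosome 4 and 4 with chromosome 14. Contact with chromosome 4 was thus split over more local maxima of this strength than contact with chromosomes 2 and 14. Corners of any O/E, by contrast, numbered 112, 88 and 100 with chromosomes 2, 4 and 14. The 9 corners made of the strongest 3 of each chromosome pair had O/E values between 316 and 1227. They are not the highest 9 over all pairs, as corners with chromosome 4 at ranks 4 and 5 had 533 and 475. At the 9 corners, SNU-C1 had 0 read pairs at 7 and OE33 at 8, and neither line had more than 2. By a one-sided limit, a count of 0 allows up to 3 read pairs, which corresponds to an O/E of 12.9 in SNU-C1 and 4.93 in OE33 for a 200-kb block pair of average coverage.

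The strongest corner with chromosome 2 joined chr8:83880001-83920000 and chr2:98960001-99000000, with an O/E of 676 on 186 read pairs (95% interval 160 to 215). The nearest protein-coding gene on the chromosome 8 side is *SNX16*, a sorting nexin of the endosome, at 1045 kb from the 200-kb block of the corner, from which such distances are counted, and on the other side lie *CNGA3* and *VWA3B*. The second corner, with an O/E of 469 on 176 read pairs, joined 93.52 Mb of chromosome 8 to 98.60 Mb of chromosome 2, and there *RUNX1T1*, a transcriptional corepressor that is fused to *RUNX1* in leukemia, is nearest at 284 kb and *TMEM131* overlaps the partner end. The corner at rank 4, at 89.28 Mb of chromosome 8, met 98.32 Mb of chromosome 2 with an O/E of 179 on 56 read pairs. A stretch of chromosome 2 between 98.32 and 98.96 Mb was thus in strong contact with 3 separate places on chromosome 8 that span 83.88 to 93.52 Mb. The corner at rank 3 was elsewhere on both chromosomes, at 119.40 Mb of chromosome 8 within *SAMD12* and at 140.64 Mb of chromosome 2. It had an O/E of 373 on 235 read pairs. Its 200-kb block on chromosome 2 lies 389 kb from *LRP1B*, a large lipoprotein receptor gene at a common fragile site.

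With chromosome 4, the strongest corner joined chr8:111200001-111240000 and chr4:173680001-173720000, with an O/E of 1096 on 426 read pairs (387 to 468). *KCNV1*, a modifier subunit of potassium channels, is nearest on chromosome 8 at 212 kb, and the partner end lies in *GALNTL6*. The second corner had an O/E of 1036 on 494 read pairs. It joined 114.56 Mb of chromosome 8 to 170.64 Mb of chromosome 4 at *CLCN3* and *HPF1*. Its 200-kb block on chromosome 8 lies 151 kb from *CSMD3*, a large gene for a cell surface protein. The third had the most read pairs of the 9 corners, 1236 (1168 to 1307) at an O/E of 699, and joined 107.68 Mb in *OXR1*, an oxidation resistance gene, to 166.68 Mb of chromosome 4, where *TLL1*, a metalloprotease of the BMP1 family, overlaps the 200-kb block. The leading ends on chromosome 4 lay between 166.68 and 173.68 Mb, but further corners with an O/E above 200 reached other parts of that chromosome, at 45.76, 79.84, 150.80, 155.00, 158.12 and 161.76 Mb. The end near 173.68 Mb was met again from 91.24 Mb of chromosome 8, with an O/E of 475 on 126 read pairs.

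With chromosome 14, the corner with the highest O/E of all in 200-kb blocks joined chr8:105720001-105760000 and chr14:54760001-54800000, at 1227 on 550 read pairs (505 to 598). Over 3 by 3 bins its O/E was 1414, below the 2304 of the second corner with chromosome 4. The chromosome 8 end lies in *ZFPM2*, which codes for a cofactor of GATA transcription factors, and *LRP12* overlaps the same 200-kb block. The second corner met the same 40-kb bin of chromosome 14 from 81.80 Mb of chromosome 8, beside *PAG1*, an adaptor of Src family kinase signalling, with an O/E of 375 on 207 read pairs. One 40-kb bin of chromosome 14 was therefore in strong contact with places 23.92 Mb apart on chromosome 8. The third corner joined 116.24 Mb to 36.84 Mb of chromosome 14 beside *MBIP*, with an O/E of 316 on 131 read pairs. Its 200-kb block on chromosome 8 lies 20.7 kb from *TRPS1*, a GATA-type transcription factor of breast epithelium.

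Contact on the 4 sides of a corner shows which stretches next to the ends meet. Within 1 Mb, 1 side took more than 50% of the summed O/E at 6 of the 9 corners, and the leading side was the same within 400 kb at 9 of 9. At the strongest corner with chromosome 2, the side before the end on chromosome 8 and after it on chromosome 2, in the direction of rising coordinates, had a mean O/E of 194 and took 83.7%, while the next side had 25.3. The corners at 93.52, 119.40, 111.20 and 116.24 Mb of chromosome 8 were also one-sided, with 79.7%, 72.8%, 80.4% and 78.3%. The 2 corners that share the end on chromosome 14 were not, as the leading side took 39.1% and 32.4%, and all 4 sides of the first had a mean O/E between 24.3 and 74.5. The third corner with chromosome 4 lay between, with 46.6% on its leading side.

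The fall of contact with distance from the corner was set beside the fall within chromosomes in the same map. At summed distances of 40 to 200 kb, the leading side of the 9 corners had 3.89% to 13.4% of the mean contact that bins of one chromosome have at that distance, and in the other lines it had at most 0.0637%. Between 2.04 and 4 Mb, the HCC1954 values were 0.78% to 18.9% (median 4.21%), and the other lines reached 1.64%. At the strongest corner with chromosome 2 the percentage was nearly level, between 13% and 19.4% at every distance, so contact fell with distance as it does within a chromosome. The strongest corner with chromosome 4 was alike, at 13.1% to 24.8%. Elsewhere the contact broke off, from 10.1% at 240 to 480 kb to 0.24% at 520 kb to 1 Mb at the strongest corner with chromosome 14, from 6.07% to 0.22% over the same step at the third corner with chromosome 4, and from 11.2% at 520 kb to 1 Mb to 0.18% at 1.04 to 2 Mb at the second corner with chromosome 4. Contact returned farther out at the corner with chromosome 14, to 6.04% between 1.04 and 2 Mb, and at the second corner with chromosome 4, to 4.21% between 2.04 and 4 Mb.

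**Figure D2:**
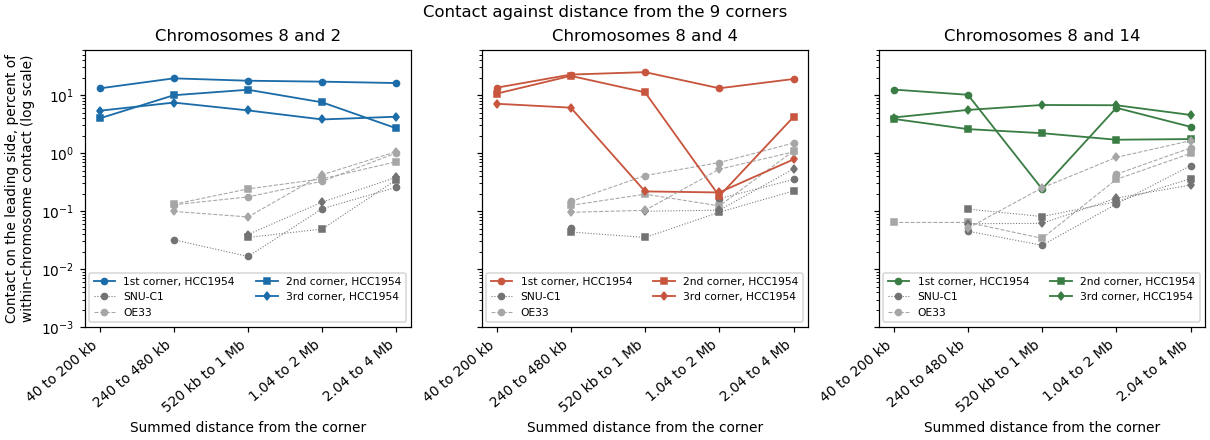
Contact on the leading side of each of the 9 corners against summed distance along both chromosomes, as a percentage (log scale) of the mean contact within chromosomes at that distance in the same map; coloured lines are HCC1954, grey lines are SNU-C1 and OE33, and values of 0 are not drawn. All 9 HCC1954 corners lie at 3.89% to 13.4% at the shortest distance, and 3 of them drop below 1% at 520 kb to 2 Mb.

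The partners met overlapping but unequal parts of chromosome 8. At least 1 specific block pair was found in 44 of the 130 usable blocks of chromosome 8 with chromosome 2, in 43 with chromosome 4 and in 34 with chromosome 14. Of the 59 blocks in any of these lists, 18 were in all 3, 26 in exactly 2 and 15 in exactly 1. The blocks shared by all 3 lay between 90 and 120 Mb. Chromosomes 2 and 4 shared 29 blocks (65.9% and 67.4% of their lists), chromosomes 2 and 14 shared 26 (59.1% and 76.5%), and chromosomes 4 and 14 shared 25 (58.1% and 73.5%).

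The blocks of dense contact were compared in the same way. Blocks of chromosome 8 with at least 20 specific partner blocks numbered 18 for chromosome 2, 11 for chromosome 4 and 20 for chromosome 14, a limit chosen after the counts were seen. Chromosomes 2 and 4 shared 4 of these (22.2% and 36.4%), chromosomes 2 and 14 shared 8 (44.4% and 40% of them), and chromosomes 4 and 14 shared 2 (18.2% and 10% of them). These counts are limited by the usable blocks of a partner, 231, 181 and 87, and the overlap due to list length was again not measured. Chromosome 2 had at least 20 partner blocks throughout 75 to 85 Mb and the most at 79 Mb, 59 blocks. Chromosome 14 had dense contact within that stretch from 77 to 82 Mb, where its mean O/E was 7.14, reached its highest count at 96 Mb with 70 blocks, and had a mean O/E of 7.22 over the run from 92 to 99 Mb, against 1.03 in SNU-C1 and 0.84 in OE33. All runs of chromosome 4 lay from 107 Mb on, and those from 107 to 110 Mb, 113 to 115 Mb and 117 to 120 Mb had a mean O/E of 4.27, 4.67 and 4.32. Chromosome 14 also had distal runs, from 108 to 110 Mb (6.79) and in 2 single blocks farther on (5.57 and 7.83).

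Neighbouring megabases could differ sharply. Between 72 and 85 Mb of chromosome 8, 465 of 3003 block pairs with chromosome 2 (15.5%) and 217 of 1131 with chromosome 14 (19.2%) were specific, but with chromosome 4 it was 1 of 2353. Between 113 and 115 Mb the situation was turned for chromosome 14, with 0 of 174, while 50 of 462 with chromosome 2 (10.8%) and 41 of 362 with chromosome 4 (11.3%) were specific. Between 107 and 110 Mb all 3 partners had specific contacts, 54 of 693 with chromosome 2 (7.79%), 113 of 543 with chromosome 4 (20.8%) and 104 of 261 with chromosome 14 (39.8%). The block at 109 Mb was the one block with at least 20 partner blocks for each of them. Among corners with an O/E of at least 100, the nearest chromosome 8 ends lay 0.32 Mb apart for chromosomes 2 and 4 (119.40 and 119.08 Mb). They lay 1.2 Mb apart for chromosomes 4 and 14 and 2.08 Mb for chromosomes 2 and 14. These distances depend on the limit. A weaker corner with chromosome 14 lay at 115.28 Mb (O/E 71.1 on 14 read pairs), near one with chromosome 4 at 115.04 Mb (O/E 384).

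**Figure D3:**
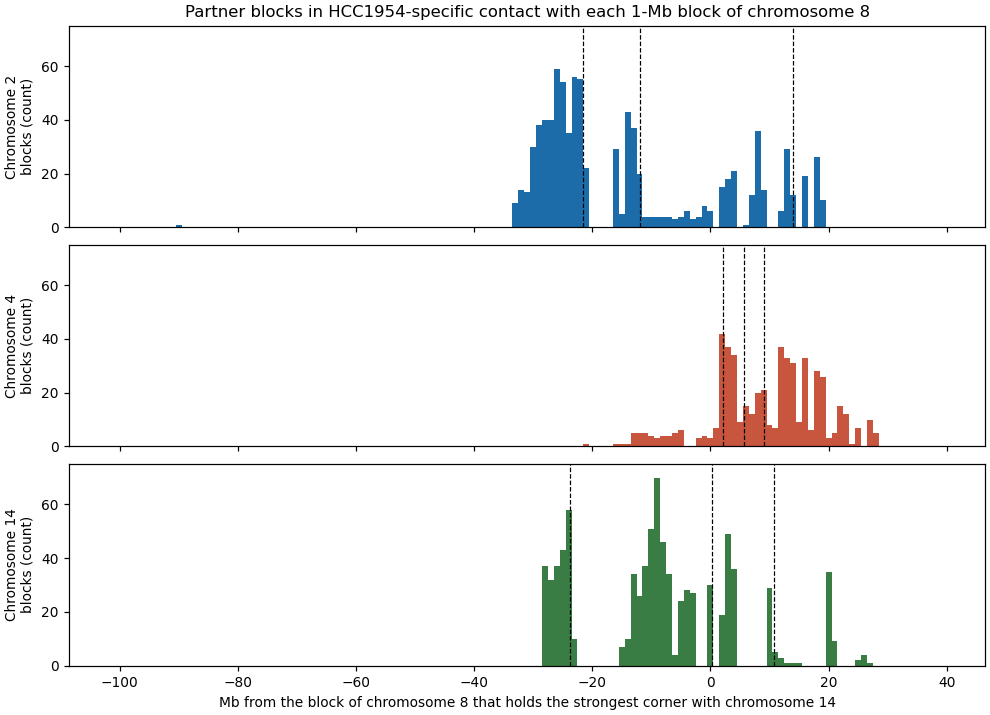
Number of 1-Mb blocks of chromosome 2 (top), 4 (middle) and 14 (bottom) in HCC1954-specific contact with each usable 1-Mb block of chromosome 8, against distance in Mb from the block that holds the strongest corner with chromosome 14; dashed lines mark the chromosome 8 ends of the 3 strongest corners of each pair. Chromosome 2 peaks at 59 partner blocks, chromosome 4 at 42 and chromosome 14 at 70, at different places.

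Direct contacts among the partners did not enter the choice of the chromosome 8 corners. HCC1954 had 298 specific 1-Mb block pairs of 41811 between chromosomes 2 and 4 (0.713%), 38 of 15747 between chromosomes 4 and 14 (0.241%) and 0 of 20097 between chromosomes 2 and 14, where the rate over all pairs was 0.395%. Each of these shares was below that of any partner with chromosome 8. In windows of 1 Mb on either side of the partner ends of the 9 corners, none of the 27 combinations reached an O/E of 4, and values ran from 0.39 to 0.65 between chromosomes 2 and 4, from 0.46 to 1.56 between chromosomes 2 and 14 and from 0.33 to 1.09 between chromosomes 4 and 14. Most of these values were below the average between chromosomes. The highest, 1.56 between 98.60 Mb of chromosome 2 and 54.76 Mb of chromosome 14, stood on 36 read pairs (25.2 to 49.8), and SNU-C1 and OE33 had 1.39 and 1.34 there. At 98.96 Mb of chromosome 2 and 36.84 Mb of chromosome 14, HCC1954 had 1.53 on 51 read pairs (38.0 to 67.1) against 1.05 and 0.95. The end of chromosome 14 at 54.76 Mb enters these combinations for both of its corners.

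Chromosomes 2 and 4 nonetheless had strong corners of their own. The strongest 2 had the same end on chromosome 2, at 148.72 Mb. The corner with 177.32 Mb of chromosome 4 had an O/E of 532 on 381 read pairs (344 to 421) in its 200-kb block pair. The corner with 174.16 Mb had an O/E of 524 on 341 read pairs (306 to 379). The second of these places lies near the end at 173.68 Mb that meets chromosome 8. A weaker corner joined 140.32 Mb of chromosome 2 to 150.40 Mb of chromosome 4, with an O/E of 109 on 22 read pairs (13.8 to 33.3), near the chromosome 2 end at 140.64 Mb and the chromosome 4 end at 150.80 Mb of corners with chromosome 8. Chromosomes 4 and 14 had a corner at 61.92 and 30.96 Mb, with an O/E of 216 on 56 read pairs, and 1 weaker corner at 68.16 and 31.24 Mb. Matching each direct corner to corners with chromosome 8, the best match lay within 1 Mb on all 3 chromosomes for both corners at 148.72 Mb, within 1.8 Mb for the one at 140.32 Mb and within 5.8 and 6.4 Mb for the corners of chromosomes 4 and 14. This matching was added after the corners were seen, and it took the best of many combinations among corners of any rank. Several matched corners with chromosome 8 were weak. For the corner at 148.72 and 177.32 Mb they had O/E values of 13.8 and 21.1 on 12 read pairs each. For the corner at 148.72 and 174.16 Mb they had 21.7 on 10 read pairs and 475 on 126.

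Coverage, the read pairs of a bin relative to the autosomal median of its map, was not used to choose the corners. Relative to the median of the other lines, SW480 included, HCC1954 coverage had a median of 2.1 over 310 200-kb blocks between 72 and 134 Mb of chromosome 8 (0.56 to 5.88), against 0.58 from 0 to 43 Mb, 1.12 from 48 to 72 Mb and 0.44 from 134 to 147 Mb. The median was thus highest in the stretch that met the partners. The bounds of that stretch were taken from the contacts and not from coverage. Single blocks outside it also had high coverage, up to 3.52 from 0 to 43 Mb and up to 1.61 from 48 to 72 Mb. Iterative correction divides coverage out of the O/E values, and without the correction the counts of specific block pairs were 1770, 1274 and 1457 with chromosomes 2, 4 and 14. The part of coverage in the contacts was not tested.

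Coverage changed steeply at some corner ends. Before 119.40 Mb of chromosome 8, relative coverage over 1 Mb was 5.40 and after it 1.63, a step of 3.32-fold. In plain coverage, HCC1954 fell there from 9.06 to 2.68 times its median, while SNU-C1 had 2.26 and 2.27, OE33 1.68 and 1.65, and the SW480 replicates at most 1.02 before and 0.90 after the end. The reverse was seen at 107.68 Mb, where relative coverage rose from 1.94 to 5.62, a step of 2.90-fold. The higher side of both ends faces the other end, but coverage between them was not evenly high, with 1.76 before 111.20 Mb and 1.46 before 116.24 Mb. Steps of at least 1.5-fold were found at 7 of the 18 ends, 4 on chromosome 8 and 3 on the partners, with the end at 54.76 Mb of chromosome 14 (1.80-fold) counted for both of its corners, and 6.36% of 12183 positions spaced over the autosomes had such a step. Between 72 and 134 Mb of chromosome 8, where all 9 chromosome 8 ends lie, it was 23.5% of 310 positions. With 2 Mb on each side 5 ends had one, all on chromosome 8. The partner ends at 54.76 Mb of chromosome 14 and 173.68 Mb of chromosome 4 then had steps of 1.30-fold. At 93.52 Mb of chromosome 8 and 98.60 Mb of chromosome 2, by contrast, the steps were 1.02 and 1.06, below the median step of 1.13 over all positions.

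Contacts across an end within its own chromosome were measured in 5 maps and were also not part of the choice. The mean O/E of bin pairs that span the end, over 1 Mb on each side, was lower in HCC1954 than in every other map at 11 of the 18 ends, 7 of 9 on chromosome 8 and 4 of 9 on the partners, against 18.6% of the positions over the autosomes. Between 72 and 134 Mb of chromosome 8 alone, however, HCC1954 was below every other map at 70.6% of 310 positions, so low contact of this kind was common to the stretch and is not particular to its corner ends. The 4 on the partners are not separate places. The ends at 98.60 and 98.96 Mb of chromosome 2 have overlapping windows, and the end at 54.76 Mb of chromosome 14 is again counted for both of its corners. Relative to the median of the other maps, HCC1954 contact across the 18 ends ranged from 0.53 to 1.13 (median 0.77). The lowest value was that of 119.40 Mb of chromosome 8, where HCC1954 had an O/E of 0.59, SNU-C1 1.13, OE33 0.93 and both SW480 replicates 1.11. At 111.20 Mb the values were 0.61 in HCC1954 against 1.14, 1.11, 1.02 and 0.98 in the same order. The end at 83.88 Mb did not follow, with 1.49 in HCC1954 against 1.29, 2.00, 1.33 and 1.32. The SW480 replicates differed from each other by a median of 0.03 (log2) over all positions, and by less than 0.08 at 95% of them. The lowest HCC1954 O/E across any end was 0.51, at 170.64 Mb of chromosome 4, where OE33 had 0.44 and SNU-C1 0.77.

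**Figure D4:**
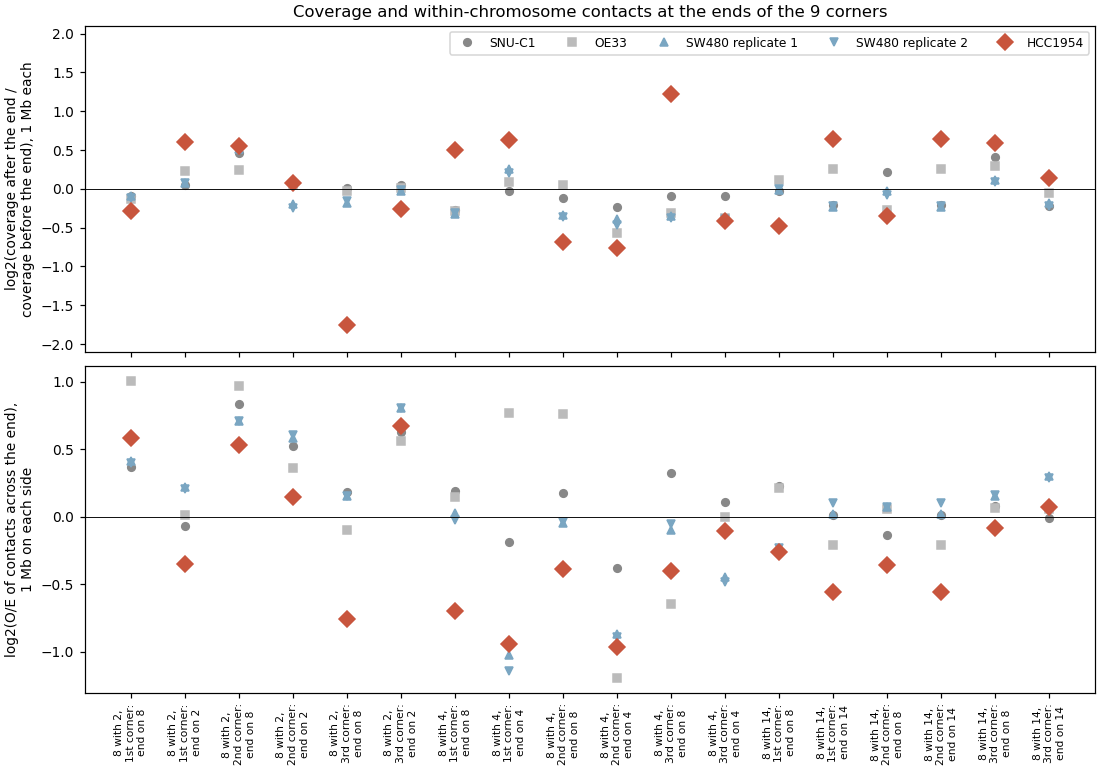
Log2 of coverage after over coverage before each end (top) and log2 of the O/E of contacts that span the end (bottom), both over 1 Mb on each side, for the 18 ends of the 9 corners in 5 maps; red diamonds are HCC1954 and the line at 0 marks no step or the average contact. HCC1954 stands lowest in the bottom panel at 11 of 18 ends, and the SW480 replicates nearly coincide.

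The chromosome 8 ends were finally compared with one another within the chromosome, a measure added after the corners were known and made of contacts the choice did not use. In 1-Mb blocks, contact was set against the mean at the same distance within chromosomes of the same map. The highest of the 36 pairs of ends was that of 81.80 and 105.72 Mb, the ends that share the 40-kb bin of chromosome 14. It had an O/E of 4.24 on 2110 read pairs (2021 to 2202) in HCC1954, against 0.54 in SNU-C1, 1.28 in OE33 and 0.91 and 1.04 in the SW480 replicates. The next pair, 81.80 and 107.68 Mb, had 3.64 against at most 2.02, and the ends with the steepest coverage steps, 107.68 and 119.40 Mb, had 2.63 on 7429 read pairs against at most 1.48. These 3 pairs were the ones in which HCC1954 exceeded every other map, and in 24 it lay below every other map (median O/E 0.75 over the 36 pairs). The share of such block pairs over the whole stretch was not measured, so neither count is read as particular to the ends. None met the rule for a line-specific contact against all other maps, which 0.0502% of the block pairs at least 2 Mb apart met on the autosomes. Ends of different corners could also be depleted, for example 81.80 with 111.20 Mb at 0.17 against 0.35 to 0.66 and 105.72 with 107.68 Mb at 0.47 against 0.76 to 1.08.

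**Figure D5:**
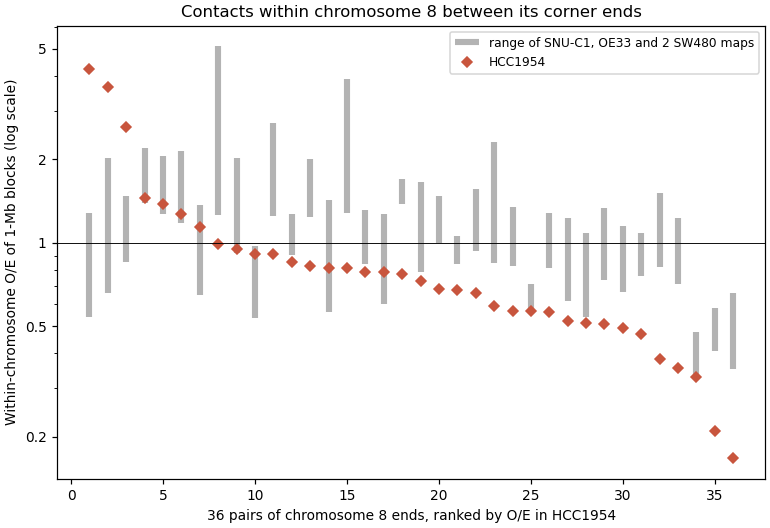
O/E (log scale) of contacts within chromosome 8 between 1-Mb blocks that hold corner ends, for 36 pairs of ends ranked by the HCC1954 value; red diamonds are HCC1954 and grey bars span SNU-C1, OE33 and the 2 SW480 replicates. HCC1954 lies above all other maps in the first 3 pairs, the highest at 4.24, and below them in 24.

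On chromosome 8 as a whole, 8 block pairs within the chromosome were specific to HCC1954, all with both blocks between 72 and 134 Mb (0.437% of 1830). The highest joined the blocks at 72 and 106 Mb, with an O/E of 38.5 on 7651 read pairs against at most 1.29 in the other maps. The block at 72 Mb is the first on the long arm in specific contact with chromosome 2, and the block at 106 Mb had no specific contact with chromosome 2 or 14. Others joined 108 and 132 Mb (9.89), 102 and 131 Mb (7.06), 91 and 131 Mb (6.82) and 109 and 124 Mb (4.76).

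Of a list of 63 cancer genes, 38 lay in a block with a specific pair. On chromosome 8 it was 13 of 22 listed genes, where 45.4% of all usable blocks had such a pair. On chromosome 2 it was 6 of 14 (55.0% of all blocks), on chromosome 4 6 of the 11 in usable blocks (38.7%) and on chromosome 14 13 of 13 (95.4%), so nothing particular to the listed genes is read from these counts. Among blocks with a listed gene, the highest value was that of the block at 114 Mb, which holds part of *CSMD3*. It had an O/E of 181 on 2254 read pairs with the block of chromosome 4 at 170 Mb. *CSMD3* itself lies before the corner end at 114.56 Mb. Within 1 Mb before that end the mean O/E was 47.9 and 18.9, against 163 on the leading side after it. *RUNX1T1* met chromosome 2 at 98 Mb with an O/E of 55.5 and 37 specific blocks, and chromosome 14 with 34. *EXT1*, an enzyme of heparan sulfate synthesis, met chromosome 4 at 79 Mb with an O/E of 71.9 and 33 specific blocks, and its block had 4.94 times the coverage of the other lines. *RAD21*, the cohesin subunit, and *EIF3H*, a translation initiation factor subunit, shared a block that met chromosome 14 at 36 Mb with 48.6 and had 37 specific blocks of chromosome 4. The block of *TRPS1* met the block of chromosome 14 at 36 Mb at 85.1 on 911 read pairs, 1.51 in SNU-C1 and 0.73 in OE33. That block also holds *NKX2-1*, a lung and thyroid transcription factor, but the gene lies after the corner end at 36.84 Mb. Within 1 Mb after that end the mean O/E was at most 4.17, against 73.2 on the leading side before it.

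Listed genes between 98 and 103 Mb had more specific blocks of chromosome 14 than of the other partners. The blocks of *MTDH*, *COX6C*, *YWHAZ*, the gene of an adaptor protein of the 14-3-3 family, and *GRHL2*, a transcription factor of epithelial identity, had 34, 24, 28 and 27 specific blocks of chromosome 14 with top O/E values of 10.7, 11.3, 14.9 and 15.8, between 3 and 6 of chromosome 2, and 4, 6, 0 and 0 of chromosome 4. The block at 99 Mb, between them, had 4 of chromosome 14, 5 of chromosome 4 and 3 of chromosome 2. *MYC*, the transcription factor gene at the distal side, was in specific contact with chromosome 4 only among the 3 partners, at an O/E of 12.2 on 259 read pairs with the block at 177 Mb, and had 0 specific blocks of chromosomes 2 and 14. On the partners, the block of chromosome 2 at 140 Mb met 119 Mb of chromosome 8 with an O/E of 77.8. It holds only an edge of *LRP1B*, which lies after the corner end at 140.64 Mb. Within 1 Mb after that end the mean O/E was at most 4.95, against 62.4 on the leading side before it. The block of *SF3B1*, a splicing factor, met 73 Mb with 13.4 and 22 specific blocks. That of *FBXW7*, a ubiquitin ligase subunit, met 114 Mb with 18.6. That of *FOXA1*, a pioneer factor of luminal breast cells, met 96 Mb with 14.8 and 17 specific blocks. The genes of the short arm, *CSMD1*, *WRN*, *NRG1*, *ZNF703* and *FGFR1*, had 0 specific blocks with any partner, and their coverage was 0.39 to 0.52 of the other lines.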

How the data were processed

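In situ Hi-C maps of SNU-C1, HCC1954 and OE33 (1 each) and SW480 replicates 1 and 2 were used. Per the labels and the methods, the authors cut chromatin with MboI, mapped the reads to hg19 (BWA-MEM), dropped PCR duplicates (Picard) and applied iterative correction. Versions, and whether libraries of a line were pooled, are not stated in these sources. The deposited values are a signal, namely the contact frequency of 2 bins of 40 kb after this correction, and the SW480 maps were corrected per chromosome. Correction removes most differences in coverage, copy number included, from the values.

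Bin factors fitted in 45 rounds returned whole read pairs (within 0.02, for values up to 20.5) for 100% of the values tested in SNU-C1, HCC1954 and OE33 and 99.9% or more in the SW480 replicates, which held 66160383 and 67547395 read pairs without pairs within a bin. Usable bins had at least 0.25 of the median autosomal coverage in all 3 lines (65556 of 75918), and blocks needed 60% usable bins. The bins matched the lengths of 23 of 23 chromosomes of GRCh37, from which sequences and, with the GENCODE annotation lifted to it, genes were taken. Named genes overlap the 200-kb block of a corner end, or are nearest to it, or belong to a list of 63 cancer genes. Chromosome pairs, lists and rules were chosen with earlier results of these data known. No test across samples was run, since SNU-C1, HCC1954 and OE33 have 1 map each. Line-specific means a call against the other 2 lines, and the matching of direct corners and the comparison of ends within chromosome 8 were added after the corners were seen. The steps that make calls and corners were also run on simulated read pairs with planted contacts, the outcome of which is not reported here. The software was NumPy 2.4.6, pandas 2.3.3, SciPy 1.17.1 and Matplotlib 3.10.9 under Python 3.11.15. The SW480 map without a replicate number was not used here.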

Additional observations from a re-analysis of the deposited data

How the results depend on the processing

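Of 66 values recomputed under alternative settings, 44 stayed within 1.5 times the value reported. The counts of specific 1-Mb block pairs with chromosomes 2, 4 and 14 moved to 209, 138 and 203 with 2-Mb blocks, which are fewer by construction, to 193, 175 and 177 with both thresholds at 8, to 2554, 1635 and 2021 with both at 2, to 1770, 1274 and 1457 without correction, and to 437, 294 and 200 with the expected value taken from the same chromosome pair, which contains the contacts themselves. With 0.1 added in place of 0.5, without either line as a comparator, with bins at 0.5 of the median coverage and with at least 10 read pairs they ranged from 837 to 1159, from 389 to 666 and from 814 to 1078. Between chromosomes 2 and 4 the count was 59 with thresholds of 8, between chromosomes 2 and 14 it was 1 with the expected value of the same pair, and between chromosomes 4 and 14 it was 9 with thresholds of 8 and 72 without correction; the cause was not tested. With thresholds of 8, chromosome 8 blocks in contact with chromosomes 2 and 4 numbered 27 and 26. The 9 corners were found again without correction, with at least 30 read pairs and without either line as a comparator, and 8 of 9 with 400-kb blocks, where 2 of the 3 with chromosome 14 were found.

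The values rest on 1 map a line, and 200-kb block pairs had 0.23 to 0.61 expected read pairs, so weak contacts of single 200-kb block pairs were not detectable at this depth. Break-ends from genome sequencing were not analysed here. No paired analysis was possible because SNU-C1, HCC1954 and OE33 have 1 map each and no result comes from a test.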
